A study of Mus musculus with 2 samples.

Results

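The 8 genes described here belong to the semaphorin guidance system: the ligands Sema3a, Sema3c, Sema3f and Sema6d, the co-receptors Nrp1 and Nrp2, and the receptors Plxna2 and Plxnd1. They were taken by name from the 18131 genes measured in 2 single-cell libraries of the mouse cardiac neural crest region at embryonic day 9.5, and followed over cell types set by marker genes. The WT library came from embryos of genotype Prdm6+/+, and the KO library from embryos of genotype Prdm6f/f, in which Prdm6, a gene for a histone methyltransferase, is flanked by loxP sites. Both genotypes were on a C57BL/6 background and carried Wnt1-Cre2, which drives Cre in the Wnt1 lineage and so in the neural crest, and the fluorescent reporter ZsGreen1. The tissue ran from the middle of the otic placode to the back of the 4th somite and no sorting was described, so cells in which Cre was never made were captured as well. Because each genotype was sequenced as a single library, differences of KO from WT have no replicate check and were not tested. Every interval given is a 95% interval of counting error only and says nothing of how embryos or libraries vary.

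Class 3 semaphorins are secreted, and most of them bind a neuropilin that passes the signal on through a plexin, whereas class 6 semaphorins sit in the membrane and bind A-type plexins directly. Plexins act on the cytoskeleton through small GTPases, and the system steers growing axons, migrating neural crest cells and sprouting vessels. In the heart it is best known for the outflow tract, where Sema3c, neuropilins, Plxna2 and Plxnd1 take part in guiding cardiac neural crest cells and in dividing the tract into the aorta and the pulmonary artery. Neuropilins are also co-receptors of vascular endothelial growth factors.

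Unique molecular identifiers (UMIs) numbered 1597 per cell at the median of 11958 WT cells and 1703 at that of 9765 KO cells, and 26 cell barcodes occurred in both libraries. A level is given as CPM, the UMIs of a gene in 1000000 UMIs of the same cells. The targeted gene Prdm6 had 104 UMIs in WT and 59 in KO, and its reads do not tell a deleted from an intact allele. The samples are labelled as cardiac neural crest cells, but the markers of migrating neural crest (Sox10, Foxd3 and others) set apart 1.73% of the WT cells and 1.58% of the KO cells. Cardiac muscle made up 5.88% and 4.17%, endothelium 3.73% and 3.47%, and erythroid cells 3.91% and 2.09%. A cell was assigned to a type when its marker UMIs exceeded what its depth would give, and each type name below means cells that are like that type by these markers. By this gate 11 groups had at least 50 cells in each library, 9 of them types and the others cells without a type that were rich in the transcripts of Epcam and other epithelial genes (the Epcam set) or of Twist1 and other mesenchymal genes (the Twist1 set). Most cells, 73.8% in WT and 78.0% in KO, were assigned to no type, and they held between 43.4% (Plxnd1) and 75.6% (Plxna2) of a member's UMIs in WT.

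**Figure D1:**
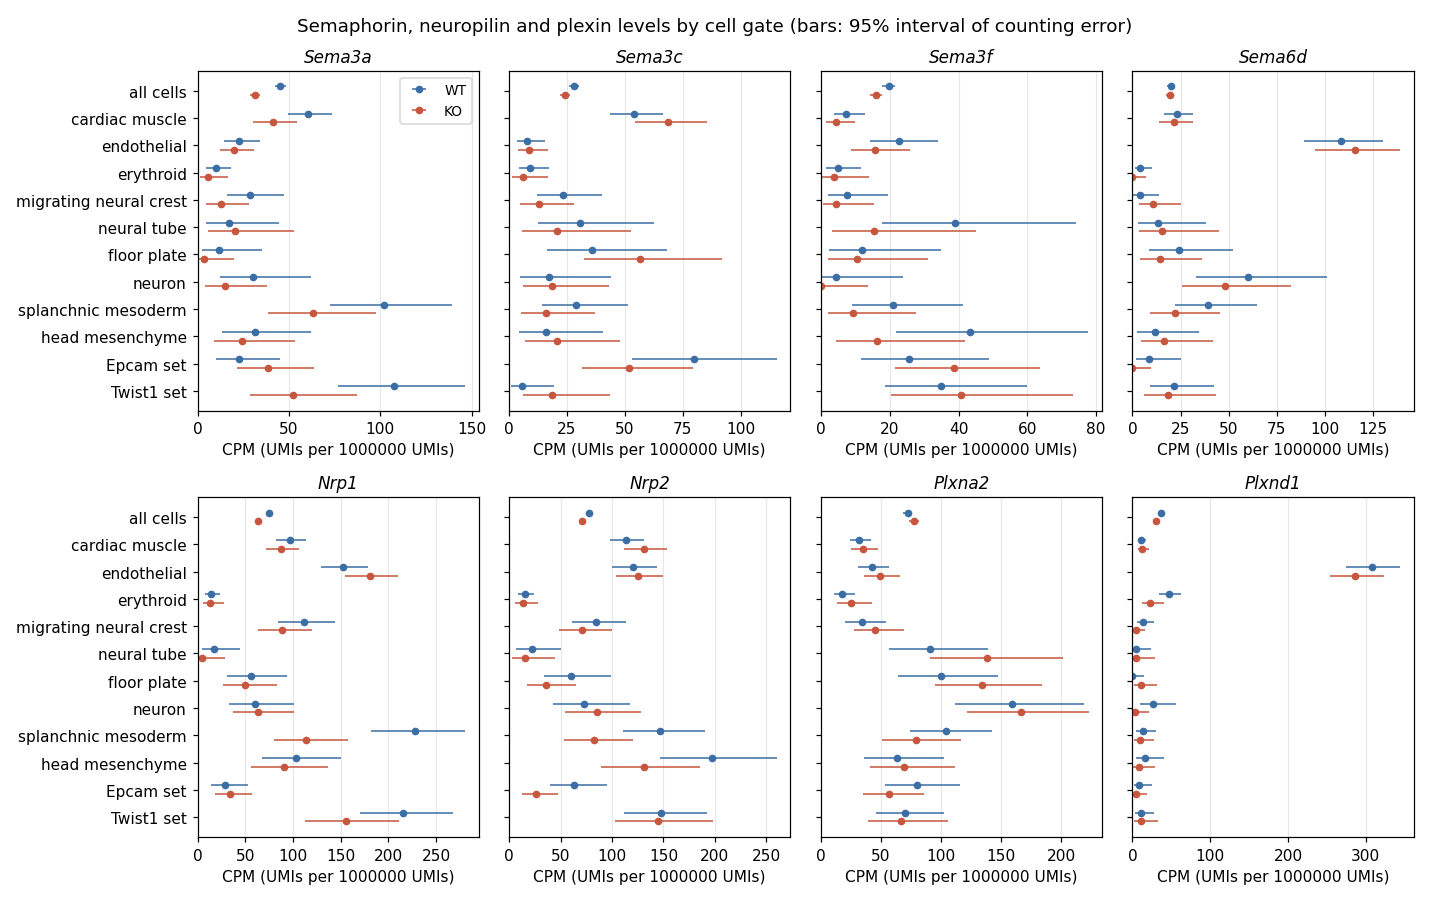
Levels of the 8 genes in CPM (x axis, from 0, a different range in each panel) over all cells and in 11 groups of cells (y axis), in WT (blue) and KO (red). Points are levels and bars are 95% intervals of counting error, and Plxnd1 and Sema6d stand highest in endothelium, at 308 and 108 CPM in WT.

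Plxnd1, the plexin of developing vessels (chromosome 6, 115954811 to 115995005, minus strand, GRCm38, as for all positions below), was the member most tied to 1 cell type. In endothelium it had 313 UMIs in WT and 273 in KO, or 308 CPM (275 to 344) and 287 CPM (254 to 323). These cells were 3.73% of the WT library and 3.47% of the KO library, yet held 41.8% and 47.7% of its UMIs, and its level there was 14.0-fold (12.03 to 16.2) that of all other cells in WT and 17.2-fold (14.6 to 20.4) in KO. After each cell was thinned to 1000 UMIs, 24.9% of WT and 24.2% of KO endothelial cells had a Plxnd1 UMI. In cardiac muscle, which should lack it, the shares were 1.16% and 1.23%, with median depths of 2299 and 2967 UMIs per cell against 2187 and 2793 in endothelium. The endothelial level was near the same in arterial (360.2 CPM in WT and 324 CPM in KO), venous (284 CPM in WT and 276 CPM in KO) and endocardial cells (272 CPM in WT and 276 CPM in KO), with overlapping intervals. KO and WT endothelium did not differ beyond counting error, with a log2 ratio of KO over WT of −0.10 (−0.34 to 0.14). The genes whose levels over the 11 groups ran most like those of Plxnd1 were Lmo2 (r = 0.96), Cd34 (0.95) and Eng (0.93), of which Lmo2 is a transcriptional cofactor of blood and endothelium, Cd34 a surface glycoprotein of vessels and Eng a co-receptor of the BMP and TGF-β family in endothelium. These correlations are of log2 levels, averaged over the libraries, across groups that share libraries, and describe likeness only.

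Erythroid cells were the next highest for Plxnd1, with 47 UMIs in WT and 12 in KO, or 46.7 and 23.2 CPM, and 4.32% and 0.493% of thinned cells had a UMI. The log2 KO over WT ratio there was −1.01 (−2.06 to −0.07), which lost the rule for a difference given below at −0.89 without the 5% of cells with most UMIs. The 11 endothelial markers summed to 102 CPM in WT and 79.1 in KO in these erythroid cells, against 4088 CPM in WT and 3741 in KO in the endothelial gate, and their log2 KO over WT ratio in the erythroid cells was −0.37 (−0.93 to 0.16). Of these markers 0 were at 0 in WT and 2 in KO, where they were Cldn5 and Esam, while Cdh5 stood at 5.96 CPM in WT and 7.72 in KO and Plvap at 6.95 CPM in WT and 9.65 in KO, all with few UMIs and picked after their values were seen. Erythroid marker transcripts over all cells stood at 301 CPM in WT and 149.7 in KO, and the part of this difference in the Plxnd1 ratio was not tested.

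Sema6d, the membrane-bound ligand of A-type plexins in this set (chromosome 2, 124089969 to 124667770, plus strand), had the same leading type. It had 110 UMIs in endothelium in WT and 110 in KO, at 108 CPM (88.9 to 130.4) and 115 CPM (94.9 to 139), 6.97-fold (5.55 to 8.69) and 7.96-fold (6.31 to 9.98) the level of all other cells. Neurons came next, at 60.2 CPM in WT and 48.2 CPM in KO, and in both libraries the interval of the endothelial level over the neuronal one excluded equality. In erythroid cells WT gave 4 UMIs and KO gave 0 in 204 cells. By a limit of 3 counts, up to 1.47% of such cells at this depth could hold a UMI. That is a bound on cells with a UMI and not on cells that express the gene. The thinned shares were 10.0% and 10.6% of endothelial against 0.648% and 0% of erythroid cells, whose median depths were 2068 and 2467. Within endothelium the arterial level was 132 CPM in WT and 154 CPM in KO and the venous level 119 CPM in WT and 119 CPM in KO. Endocardial cells held 4 UMIs in WT and 17 in KO, a log2 ratio of 1.70 (0.08 to 3.73) that rests on few UMIs. Over all cells Sema6d was the ligand closest to equal, with a log2 ratio of −0.03 (−0.24 to 0.17). Its nearest genes over the groups were Arhgef7 (r = 0.96), Nfic (0.95) and Bnip2 (0.91). Plxnd1 ran with it at r = 0.61. Among all thinned cells, 16 WT and 9 KO cells held both, where the product of their shares gives 5.82 and 3.65. Within endothelium the counts were 10 and 8, against 10.9 and 8.71, with no excess.

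The 2 neuropilins were found in the same broad groups and parted inside them. Nrp1 (chromosome 8, 128358604 to 128503363, plus strand), which binds Sema3a and VEGF-A, and Nrp2 (chromosome 1, 62703285 to 62818695, plus strand), which binds Sema3f, Sema3c and VEGF-C, ran together over the 11 groups at r = 0.93, and each was among the 3 genes most like the other. Nrp1 was highest in splanchnic mesoderm in WT (227 CPM) and in endothelium in KO (181 CPM), with the Twist1 set close by at 215 CPM in WT and 156 CPM in KO and not apart from the leading group beyond counting error in either library. It was low in neural tube, with 4 UMIs in WT and 1 in KO, at 17.4 CPM in WT and 5.13 CPM in KO, and in erythroid cells, at 13.9 CPM in WT and 13.5 CPM in KO. Nrp2 was highest in head mesenchyme in WT (198 CPM in WT and 131 CPM in KO) and in the Twist1 set in KO (148 CPM in WT and 145 CPM in KO), where cardiac muscle came next (113 CPM in WT and 131 CPM in KO), and the 4 highest groups of each library did not differ from their neighbours in the order. In endothelium Nrp1 had 155 UMIs in WT and 172 in KO, or 153 and 181 CPM, and Nrp2 had 122 UMIs in WT and 119 in KO, or 120.0 and 125 CPM. Splitting endothelium by arterial markers (Gja5, Dll4, Efnb2 and others) and venous markers (Nr2f2, Ephb4, Flt4 and others) separated them. Nrp1 stood at 264 CPM in WT and 279.7 CPM in KO in arterial cells and at 111 CPM in WT and 129.6 CPM in KO in venous cells, a log2 ratio of arterial over venous of 1.25 (0.65 to 1.87) in WT and 1.11 (0.51 to 1.71) in KO. Nrp2 ran the other way, with 4 arterial UMIs against 84 venous UMIs in WT and 5 against 74 in KO. Its arterial level was 18.2 CPM in WT and 27.4 CPM in KO and its venous level 227 CPM in WT and 204 CPM in KO, and the arterial over venous log2 ratio was −3.64 (−5.55 to −2.23) in WT and −2.90 (−4.56 to −1.61) in KO. Both libraries thus held the same opposite order, with intervals that excluded equality, in 96 and 68 arterial and 152 and 123 venous cells of WT and KO. In endocardial cells (Nfatc1, Npr3 and others) Nrp2 stood between the other two at 68.1 CPM in WT and 67.7 CPM in KO. Endocardial Nrp1 had 15 UMIs in WT and 37 in KO, at 102 CPM in WT and 193 CPM in KO, and its log2 KO over WT ratio was 0.92 (0.02 to 1.89), with a lower bound close to 0.

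Cardiac muscle was split in the same way, into cells with markers of the outflow tract (Isl1, Wnt11, Rspo3, Tdgf1, Fgf8, Bmp4), of the inflow region (Tbx5, Nr2f1, Shox2 and others) or of the ventricle (Irx4, Myl2 and others). Nrp2 was highest in the first of these. The 75 outflow cells of WT held 89 of the 187 cardiac Nrp2 UMIs and the 52 of KO held 102 of 153, at 521 CPM (418 to 641) and 626 CPM (511 to 761). The inflow cells stood at 28.0 CPM in WT and 6.68 CPM in KO and the ventricular cells at 48.1 CPM in WT and 37.4 CPM in KO. The log2 ratio of outflow over ventricular cells was 3.44 (2.80 to 4.12) in WT and 4.06 (3.28 to 4.95) in KO. A Nrp2 UMI was found in 31.5% of thinned outflow cells in WT and 28.8% in KO, against 1.73% and 1.48% of erythroid cells. The outflow cells were as rich in the cardiac marker list (30920.3 CPM in WT and 28155 in KO) as the ventricular cells (33731 and 32867) to within 1.5-fold, and their endothelial list stood at 129 and 92.1 CPM. Their Epcam set list was higher, at 351 CPM in WT and 258 in KO against 187 and 152 in ventricular cells. The Twist1 set list stood at 492 and 399 CPM in outflow, 310 and 310 in ventricular and 497 and 484 in inflow cells. The part of these lists in the Nrp2 order was not tested. Taken marker by marker, cardiac cells with an Isl1 UMI had Nrp2 at 512 CPM in WT and 471 in KO, against 86.2 and 98.0 in those without. With and without a Tdgf1 UMI the levels were 796 against 89.8 CPM in WT and 513 against 102 in KO, with and without Wnt11 424 against 107 CPM in WT and 570.4 against 111 in KO, and with and without Bmp4 280.3 against 71.4 CPM in WT and 400.3 against 60.7 in KO. With Rspo3 they were 196 against 98.4 CPM in WT and 131 against 131 in KO, so the KO level did not move with that marker. Fgf8 was found in 16 WT and 2 KO cells, too few to read, with 6 and 0 Nrp2 UMIs. Nrp1 did not share this order, with 82.0 CPM in WT and 49.1 CPM in KO in outflow, 88.7 CPM in WT and 100.2 CPM in KO in inflow and 114 CPM in WT and 89.9 CPM in KO in ventricular cells.

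Sema3c (chromosome 5, 17574281 to 17730268, plus strand), the secreted ligand of the outflow tract, was raised in the same cells as its co-receptor. In cardiac muscle as a whole it had 89 UMIs in WT and 80 in KO, or 54.0 and 68.6 CPM, which was 2.10-fold (1.66 to 2.64) and 3.26-fold (2.53 to 4.16) the level of all other cells. Outflow cells held 25 UMIs in WT and 37 in KO, at 146 CPM (94.7 to 216) and 227 CPM (160.0 to 313). Inflow cells stood at 25.7 CPM in WT and 26.7 CPM in KO and ventricular cells at 42.8 CPM in WT and 39.9 CPM in KO, and the log2 ratio of outflow over ventricular cells was 1.77 (0.91 to 2.65) in WT and 2.51 (1.63 to 3.45) in KO. In outflow cells the log2 KO over WT ratio was 0.63 (−0.14 to 1.43) for Sema3c and 0.27 (−0.16 to 0.69) for Nrp2, and both intervals included 0. Taken marker by marker, Sema3c was 180.2 against 45.4 CPM in WT and 202 against 55.6 in KO by Isl1 and 90.4 against 44.8 CPM in WT and 132 against 52.0 in KO by Bmp4, but 54.8 against 53.9 CPM in WT and 126 against 56.3 in KO by Rspo3, level in WT. Among thinned cardiac cells, 6 in WT and 6 in KO held both transcripts, where the product of the shares gives 2.83 and 1.79. Outside the heart Sema3c was high in the Epcam set, at 80.0 CPM in WT and 51.5 CPM in KO, and reached 36.0 CPM in WT and 56.6 CPM in KO in floor plate, a ventral organizer of the neural tube. It was near background in endothelium, at 7.87 CPM in WT and 8.40 CPM in KO against 8.94 CPM in WT and 5.79 CPM in KO in erythroid cells. The genes most like it over the groups were Rassf8 (r = 0.96), Dag1 (0.93) and Prkab2 (0.92).

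The sequences before the start sites of Sema3c and Nrp2, which shared the outflow cells, and of Plxnd1, which marked endothelium, are given as RefSeq places them on GRCm38.p6. Each line holds the 250 bases before the start, 5′ to 3′ on the strand of the gene, with every GC box (GGGCGG on either strand, the letters bound by factors of the Sp family) in capitals. Sema3c lay at chr5:17574566-17574815 (plus), Nrp2 at chr1:62703067-62703316 (plus) and Plxnd1 at chr6:115995006-115995255 (minus). The gene positions given above come from another annotation. By those positions the Sema3c window lies inside the gene and the Nrp2 window runs past the gene start.
Sema3c: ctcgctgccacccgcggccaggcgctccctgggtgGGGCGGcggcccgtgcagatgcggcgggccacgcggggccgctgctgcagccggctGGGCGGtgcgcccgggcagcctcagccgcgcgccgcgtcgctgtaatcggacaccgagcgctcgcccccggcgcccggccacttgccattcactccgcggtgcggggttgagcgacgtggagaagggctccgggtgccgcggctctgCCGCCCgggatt
Nrp2: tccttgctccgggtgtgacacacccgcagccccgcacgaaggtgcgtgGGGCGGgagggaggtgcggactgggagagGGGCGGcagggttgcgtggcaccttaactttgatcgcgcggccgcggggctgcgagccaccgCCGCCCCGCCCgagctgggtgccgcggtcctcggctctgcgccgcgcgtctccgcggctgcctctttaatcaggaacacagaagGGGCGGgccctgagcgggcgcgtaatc
Plxnd1: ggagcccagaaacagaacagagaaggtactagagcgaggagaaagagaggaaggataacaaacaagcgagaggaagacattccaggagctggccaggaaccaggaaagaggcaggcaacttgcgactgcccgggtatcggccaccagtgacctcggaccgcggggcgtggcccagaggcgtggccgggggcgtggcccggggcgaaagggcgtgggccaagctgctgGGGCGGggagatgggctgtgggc

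The GC box occurred 3 times in Sema3c, 5 times in Nrp2 and 1 time in Plxnd1, with overlapping matches counted apart, and 32.7% of 32851 windows of this length held at least 1. GC content was 78.4%, 72.4% and 64.8%, against a median of 52.4% over all windows. The GATA letters (AGATAA as one form, TGATAA as another, with AGATAG and also TGATAG accepted) and the ETS letters, spelled CCGGAAG, held by 26.5% and 6.91% of all windows on either strand, had 0 matches in these 3 windows. Of the 8 genes, 7 had a window and Sema3f was not matched.

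**Figure D2:**
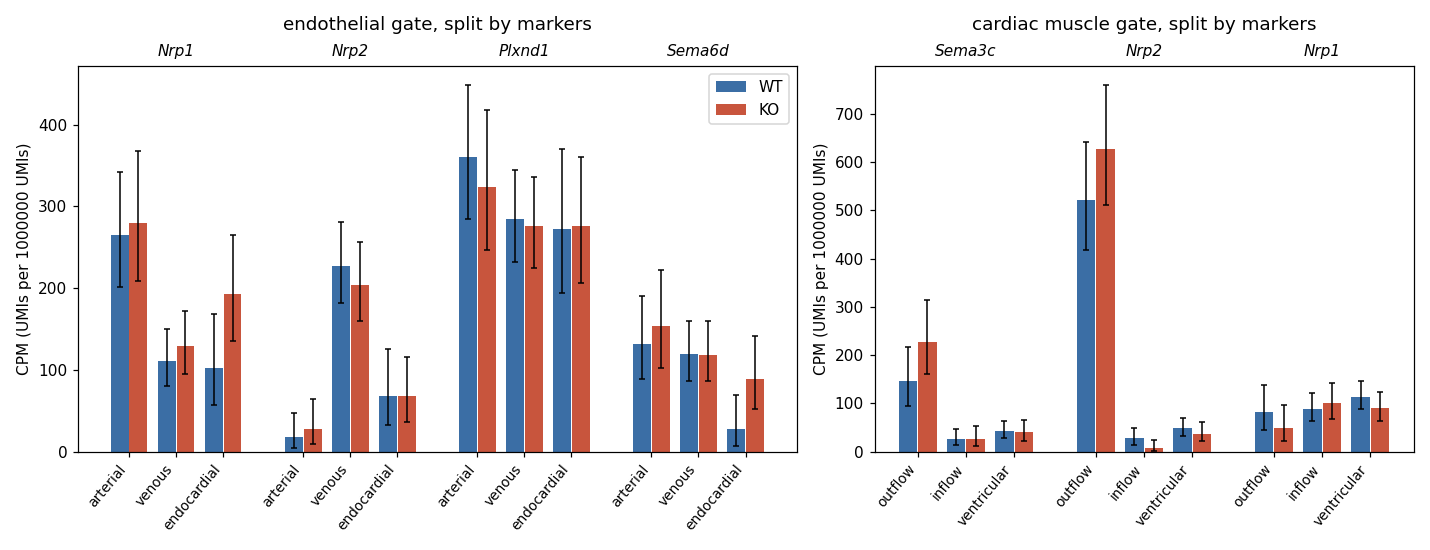
Levels in CPM (y axis, from 0) in endothelial cells split into arterial, venous and endocardial cells (left) and cardiac muscle cells split into outflow, inflow and ventricular cells (right), in WT (blue) and KO (red), with 95% intervals of counting error. Nrp1 is highest in arterial and Nrp2 in venous cells, Plxnd1 is level across endothelium, and Nrp2 and Sema3c are highest in outflow cells, where Nrp2 reaches 521 CPM in WT and 626 CPM in KO.

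Sema3a (chromosome 5, 13125414 to 13602565, plus strand), the repulsive ligand that signals through Nrp1 and A-type plexins, was highest among the 11 groups in the Twist1 set, at 108 CPM in WT and 52.0 CPM in KO, and in splanchnic mesoderm (Foxf1, Gata4, Gata6 and others), at 102 CPM in WT and 63.2 CPM in KO, 2.31-fold (1.63 to 3.19) and 2.05-fold (1.24 to 3.20) the level of all other cells. The first of these led in WT and the other in KO, and they did not differ from each other beyond counting error in either library. Groups of under 50 cells in a library stood higher still, with 12 UMIs in WT and 13 in KO in surface ectoderm (163 CPM in WT and 134 CPM in KO) and 32 and 18 in dermomyotome (125 CPM in WT and 142 CPM in KO). Erythroid cells stood at 9.93 CPM in WT and 5.79 CPM in KO, and migrating neural crest at 28.8 CPM in WT and 12.9 CPM in KO. Cells with a Sema3a UMI were also richer in Myf5, a muscle determination gene of the somite, with 154 CPM against 47.7 in WT and 65.0 against 25.1 in KO for cells with and without it. The genes most like Sema3a over the groups were Svep1 (r = 0.93), Adamts9 (0.92) and Usp47 (0.90).

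Sema3f (chromosome 9, 107681500 to 107710475, minus strand), a secreted ligand that prefers Nrp2, was the lowest in UMIs, with 409 in WT and 302 in KO over all cells. In WT its highest levels were 43.5 CPM in head mesenchyme, 39.1 in neural tube and 34.9 in the Twist1 set, which stood at 16.4, 15.4 and 40.9 CPM in KO. In KO the Twist1 set was followed by the Epcam set, with 9 UMIs in WT and 15 in KO, 25.7 CPM in WT and 38.6 CPM in KO, or 1.31-fold (0.596 to 2.52) and 2.50-fold (1.38 to 4.19) the level of all other cells. In both libraries neurons, migrating neural crest and cardiac muscle stood at or under 7.67 CPM. Neighbours in its order did not differ beyond counting error in either library, and its top group changed with the gate. The genes most like it were Csad (r = 0.92), Pgrmc1 (0.91) and Il6st (0.89).

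Plxna2 (chromosome 1, 194618218 to 194816869, plus strand), a plexin that serves both semaphorin classes, was the neural member. Neurons were highest, with 37 UMIs in WT and 45 in KO, or 159 and 167 CPM, 2.23-fold (1.57 to 3.10) and 2.19-fold (1.59 to 2.94) the level of all other cells. Neural tube stood at 91.3 CPM in WT and 138 CPM in KO, floor plate at 99.9 CPM in WT and 134 CPM in KO, and splanchnic mesoderm at 105 CPM in WT and 79.0 CPM in KO. In neither library did neurons differ beyond counting error from the next group, which was splanchnic mesoderm in WT and neural tube in KO. Migrating neural crest had 34.5 CPM in WT and 45.2 CPM in KO, cardiac muscle 32.2 CPM in WT and 35.2 CPM in KO and erythroid cells 17.9 CPM in WT and 25.1 CPM in KO, the low end of the order. In dorsal neural tube cells the levels were 145 CPM in WT and 166 CPM in KO, and in ventral ones 3 UMIs in WT and 12 in KO. The genes most like it were Vcp (r = 0.96), Zfp60 (0.94) and Rab23 (0.93).

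In migrating neural crest, a lineage in which Wnt1-Cre2 is active, the receptors with most UMIs were Nrp1, with 58 UMIs in WT and 41 in KO, or 111 and 88.2 CPM, and Nrp2, with 44 UMIs in WT and 33 in KO, or 84.4 and 71.0 CPM. Their log2 ratios of KO over WT were −0.33 (−0.95 to 0.27) and −0.25 (−0.95 to 0.43), and that of Plxna2 was 0.39 (−0.59 to 1.38). Among the members with at least 20 UMIs in both libraries together, Sema3a had the ratio farthest from 0, −1.16 (−2.81 to 0.29), on 15 UMIs in WT and 6 in KO, with an interval that included 0, and Sema3c had 12 and 6. Sema3f, Sema6d and Plxnd1 had 7 UMIs or fewer in each library, too few for a ratio at this depth. Of the 4 members with enough UMIs, 0 differed by the rule given next, against 5.50% of the genes tested in these cells.

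KO was compared with WT by one rule for every gene, which asked for at least 20 UMIs over both libraries, a ratio of at least 1.5-fold either way and an interval of the ratio without 0 on the log2 scale. Over all cells 0 of the 8 members met it, against 4.65% of 14522 genes, of which 141 were higher and 534 lower in KO, but Sema3a met it once cells were thinned to 1000 UMIs. Sema3a came nearest, with 938 UMIs in WT and 593 in KO, 45.1 CPM in WT and 31.3 CPM in KO, and a log2 ratio of −0.53 (−0.68 to −0.38). After thinning its ratio was −0.68 (−0.91 to −0.46), and as a mean over cells of scaled counts it was −0.62, both past 1.5-fold. The thinning was a single draw and left out 1361 WT and 125 KO cells. Sema3a was followed by Sema3f at −0.30 (−0.52 to −0.09), Plxnd1 at −0.25 (−0.41 to −0.10), Nrp1 at −0.24 (−0.35 to −0.13), Sema3c at −0.22 (−0.40 to −0.04) and Nrp2 at −0.13 (−0.24 to −0.03). Plxna2 was the one member with a ratio above 0, at 0.10 (−0.00076 to 0.21). The median of the members was −0.23, beside −0.06 over all genes tested, and 6 of the 8 intervals lay below 0, as did those of 23.6% of all genes. The libraries also differed in make-up, with erythroid cells at 3.91% in WT and 2.09% in KO and cardiac muscle at 5.88% and 4.17%. With the type shares of WT applied to the KO levels the ratio of Sema3a was −0.51, and the other 7 members kept their direction, but most cells had no type, so make-up among them was not tested.

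**Figure D3:**
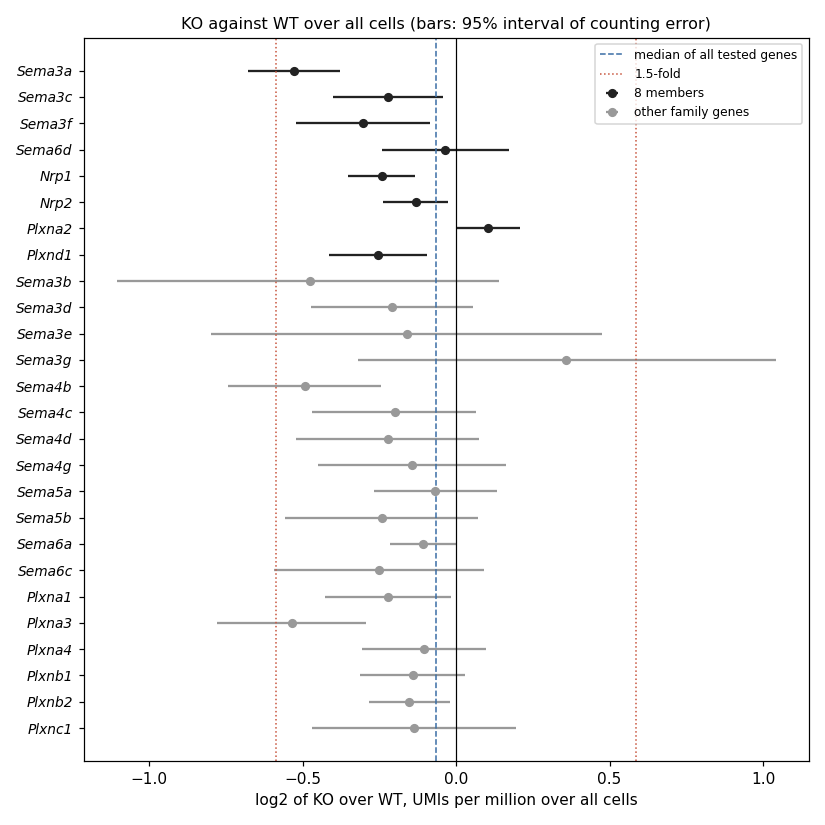
Log2 ratio of KO over WT (x axis) over all cells for the 8 members (black) and for the other semaphorin and plexin genes with at least 50 UMIs (grey), with 95% intervals of counting error. The solid line is equality, the dashed line the median of all genes tested (−0.06) and the dotted lines 1.5-fold, which the points of the members stay within on this scale.

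Within the 11 groups, 50 pairs of member and group had enough UMIs, and 5 of them met the rule, all lower in KO. Splanchnic mesoderm held 2 of its 5 (Nrp1 and Nrp2, against 7.14% of all genes tested there), the Twist1 set 1 of 5 (Sema3a, 6.52%), the Epcam set 1 of 6 (Nrp2, 6.43%) and erythroid cells 1 of 4 (Plxnd1, 5.28%). Cardiac muscle had 0 of 7 (5.84% of all genes), endothelium 0 of 7 (4.87%), floor plate 0 of 4 (5.95%), neurons 0 of 4 (6.27%), head mesenchyme 0 of 3 (5.74%) and neural tube 0 of 1 (6.25%). In the subsets of endothelium and cardiac muscle described above, 26 pairs had enough UMIs and 3 met the rule, all higher in KO. Endocardial cells held 2 of 4, against 5.84% of all genes tested there: Sema6d, with 4 UMIs in WT and 17 in KO and a log2 ratio of 1.70 (0.08 to 3.73), and Nrp1, with 15 and 37 UMIs and a ratio of 0.92 (0.02 to 1.89). Nfatc1 stood there at 225 CPM in WT and 172 in KO. The venous markers Nr2f2 (238 and 156 CPM) and Flt4 (74.9 and 130) went opposite ways. The Twist1 set markers summed there to 674 CPM in WT and 526 in KO, and the part of these markers was not tested. Ventricular cells held 1 of 6 (7.41%), Plxna2, with 13 and 21 UMIs and a ratio of 1.18 (0.11 to 2.30). Arterial cells had 0 of 4 (6.76%), venous cells 0 of 5 (5.59%), outflow cells 0 of 4 (7.17%) and inflow cells 0 of 3 (7.03%). The 5 within the groups were sensitive to how cells were gated and counted, and between 1 and 6 pairs met the rule under the alternatives. Gates that count distinct markers have no Epcam or Twist1 set, so the calls in these sets could not recur there. In the Twist1 set Sema3a had 40 UMIs in WT and 14 in KO, a log2 ratio of −1.05 (−2.04 to −0.14). The 6 markers of the set summed to 5000.4 CPM in WT and 3986 in KO, a log2 ratio of −0.33 (−0.44 to −0.22), in which the collagen genes Col1a2 and Col3a1 had ratios of −0.78 and −0.64 and the other 4 markers lay between −0.02 and 0.34. The markers of splanchnic mesoderm, the other group rich in Sema3a, summed there to 546 CPM in WT and 375 in KO, a log2 ratio of −0.54 (−0.90 to −0.19), and those of pharyngeal mesoderm had a ratio of −0.89 (−1.66 to −0.18). In the Epcam set Nrp2 had 22 and 10 UMIs and a log2 ratio of −1.29 (−2.53 to −0.15), which was 0.014 without the 5% of cells with most UMIs, and the splanchnic marker list stood there at 368 CPM in WT and 216 in KO. The part of these markers in the member ratios was not tested. The Sema3a ratio lost the rule under a stricter gate (a tail of 1e-04 in place of 0.001), where it was −0.24.

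Of these 5 differences, that of Nrp1 in splanchnic mesoderm rested on most UMIs, with 87 UMIs in WT and 36 in KO. Its level was 227 CPM (182 to 280.4) in WT and 114 CPM (79.6 to 157) in KO, a log2 ratio of −0.999 (−1.60 to −0.42). Nrp2 had 56 and 26 UMIs there and a log2 ratio of −0.83 (−1.56 to −0.14), and the 5 members tested had a median of −0.83 beside 0.0036 over all genes. The 7 markers of the gate summed to 3107 CPM in WT and 2590 in KO, a log2 ratio of −0.26 (−0.39 to −0.13). They did not all keep their proportions between the libraries. Gata4 stood at 724 CPM in WT and 594 in KO, Gata6 at 1314 and 1061 and Tbx5 at 217 and 215. Hand1, a factor of heart and extraembryonic mesoderm, stood at 214 CPM in WT and 66.3 in KO, Wt1, a marker of mesothelium and proepicardium, at 118 CPM in WT and 44.2 in KO, and Osr1, a factor of intermediate and lateral mesoderm, at 295 CPM in WT and 420.1 in KO, while Foxf1 stood at 225 CPM in WT and 189.5 in KO. The markers of the Twist1 set, the other group rich in both neuropilins, summed to 1724 CPM in WT and 1004 in KO in this gate, a log2 ratio of −0.78 (−0.98 to −0.58), the cardiac markers to 2072 CPM in WT and 1674 in KO and the endothelial markers to 169.8 CPM in WT and 174 in KO. The part of these markers in the Nrp1 and Nrp2 ratios was not tested. The gate was also split by Hand1 and Wt1, which were picked after their values were seen. Cells of the gate with a UMI of Hand1 or Wt1 were 70 of 175 in WT and 19 of 123 in KO. In these cells Nrp1 stood at 382 CPM in WT and 221 in KO, and in the others at 110.2 and 91.5. The log2 ratio of Nrp1 was −0.79 (−1.82 to 0.11) with these markers and −0.27 (−1.15 to 0.61) without them, on fewer UMIs and so with wider intervals than over the whole gate. For Nrp2 the ratios were −0.67 (−2.23 to 0.62) and −0.70 (−1.61 to 0.19). The Nrp1 ratio did not meet the rule after thinning, at −0.82, and that of Nrp2 turned to 0.69 when cells with markers of another type were left out. That last setting kept only 22 WT and 11 KO cells of the gate. Whether Nrp1 differs per cell or the cells that carry it differ in number cannot be told apart in 1 library per genotype.

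**Figure D4:**
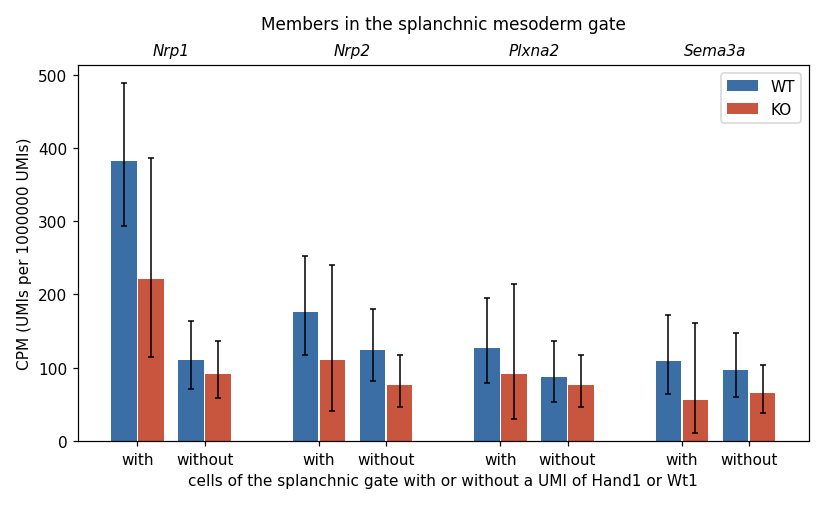
Levels of Nrp1, Nrp2, Plxna2 and Sema3a in CPM (y axis, from 0) in splanchnic mesoderm cells with and without a UMI of Hand1 or Wt1 (x axis), in WT (blue) and KO (red), with 95% intervals of counting error. Nrp1 is high in the cells with these markers in both libraries (382 and 221 CPM), which were 70 cells in WT and 19 in KO.

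Of 23 other semaphorin and plexin genes listed, 22 were measured and 21 had at least 20 UMIs. Over all cells 0 of these 21 met the rule (against 4.65% of all genes), 20 had a ratio below 0, and their median was −0.20. Sema6a, a membrane-bound ligand of A-type plexins, had most UMIs, with 1553 UMIs in WT and 1314 in KO, and Plxnb2, a receptor of class 4 semaphorins, followed with 1038 UMIs in WT and 851 in KO. The ratios farthest from 0 with intervals that excluded it were those of Plxna3, at −0.53 (−0.78 to −0.29), and Sema4b, at −0.49 (−0.74 to −0.24). Sema3g, a ligand of arterial endothelium, was the one ratio above 0, with 36 UMIs in WT and 42 in KO, and 18 and 25 of these UMIs lay in endothelium. In cardiac muscle 2 of 7 met the rule (against 5.84%), both lower in KO: Sema4b, with 34 UMIs in WT and 12 in KO, and Plxnb2, with 81 UMIs in WT and 36 in KO. In these cells the markers of the Epcam set had a log2 ratio of −0.39 (−0.66 to −0.13) and those of the Twist1 set −0.0077 (−0.18 to 0.16). Their part in the calls was not tested. In splanchnic mesoderm 2 of 3 met the rule (against 7.14%), Plxna4 with 21 UMIs in WT and 4 in KO and Plxnb2 with 27 UMIs in WT and 10 in KO, in the cells whose make-up differed as described. Plxna4, a receptor of Sema3a and class 6 semaphorins, was even in cardiac muscle, at 67.4 CPM in WT and 66.9 CPM in KO. Sema6a was highest in the Epcam set in both libraries, at 169 CPM in WT and 149 CPM in KO. In the other 9 groups, where 4.87% to 6.52% of all genes met the rule, 0 of the family genes did, and in migrating neural crest the 6 tested had a median of 0.22.

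Of 26 partners and downstream genes listed, such as the Dpysl and Mical families, which link plexins to microtubules and actin, all had enough UMIs over all cells. The kinase gene Fes was the 1 of 26 that met the rule (against 4.65% of all genes), lower in KO with 49 UMIs in WT and 27 in KO and a log2 ratio of −0.73 (−1.46 to −0.02), and the median of the list was −0.04. The genes of this list named next were picked after their values were seen, as those past the rule in a group. In endothelium 1 of 20 did, against 4.87% of all genes: Rras, a small GTPase that plexins inactivate, with 48 UMIs in WT and 21 in KO and a log2 ratio of −1.10 (−1.91 to −0.33). In migrating neural crest 1 of 15 did (5.50% of all genes), Dpysl3, a collapsin response mediator, which was higher in KO, with 47 UMIs in WT and 67 in KO and a log2 ratio of 0.68 (0.12 to 1.25). In neurons 2 of 11 did (6.27%), Dpysl3 and Crmp1, another of that family, both lower in KO at −0.71 (−1.27 to −0.16) and −0.60 (−1.11 to −0.09). Of the rest, Rac1 met it lower in KO in erythroid cells (1 of 13, 5.28% of all genes), and Dpysl2 in floor plate (1 of 10, 5.95%), Fyn in the Epcam set (1 of 12, 6.43%) and Vegfa in the Twist1 set (1 of 10, 6.52%) met it higher. With 1 or a pair of genes in a group, and 0 in the other 4 groups, these counts do not set the list apart from all genes.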

How the data were processed

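Dissected embryos of each genotype were pooled by the authors with sample barcodes for droplet single-cell RNA sequencing, and cells could not be traced to single embryos here. Per the labels, Cell Ranger 1.3.1, Scanpy and build mm10 were used. The authors removed very shallow and very deep cells, putative doublets, rarely seen genes, and mitochondrial and ribosomal UMIs. The deposited values are square roots of UMI counts scaled to the total of each cell. Squaring them and dividing by the smallest nonzero square of the cell gave counts that were whole within 0.01 for 100% of values, between 533 and 4588 per cell. Depths ran to 20781384 UMIs in WT and 18936857 in KO.

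A cell took a type when its summed marker UMIs had a Poisson tail under 0.001 given its depth and the library mean, with at least 2 markers and a tail 10-fold under that of any other type. This gate and the Epcam and Twist1 sets were chosen after seeing the data, because the planned count of 3 distinct markers put cardiac transcripts carried by most cells into the cardiac gate, and that count is kept as an alternative. The members and gene lists were chosen with earlier results of these data known. Levels are pooled CPM, with exact Poisson intervals on levels and exact binomial intervals on ratios. No count model was fitted, since each genotype had 1 library, and no doublet caller was run.

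Genes named beside the members were family genes with at least 50 UMIs, downstream genes past the rule over all cells, and for each member the 3 most alike in Pearson r of log2(CPM + 10) over the groups, among genes with at least 500 UMIs outside the markers. All others, single marker genes named beside a result included, were picked after their values were seen. Thinning was a single random draw and left out 1361 WT and 125 KO cells with under 1000 UMIs. Alternatives were other gates, scalings, depths and UMI minimums. Python 3.11.15, numpy 2.4.6, scipy 1.17.1, pandas 2.3.3 and matplotlib 3.10.9 were used.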

Additional observations from a re-analysis of the deposited data

How the results depend on the processing

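Over all cells, 54 of 56 values of the members under another setting stayed within counting error of the reported ones. The others were those after thinning to 1000 UMIs per cell, where the log2 ratio was −0.68 for Sema3a, which then met the rule, and −0.30 for Nrp2. Scaling by the median of ratios or the trimmed mean would subtract −0.06 or −0.05 from all log2 ratios, which moves each of them up. Of 14522 genes tested, 675 met the rule, and 615 with the median of ratios. With no UMI minimum 774 of 18131 met it, and 394 of 11744 with a minimum of 100 UMIs.

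Within the groups the calls were fragile. In place of 5 pairs, 3 met the rule with a gate of at least 3 distinct markers, 1 with at least 4, 1 when cells with markers of another type were left out, 2 after thinning and 3 without the 5% of cells with most UMIs. The gates by distinct markers have no Epcam or Twist1 set, so Nrp2 in the Epcam set and Sema3a in the Twist1 set could not be called under them. Nrp2 turned to 0.69 in splanchnic mesoderm when cells with markers of another type were left out, on only 22 WT and 11 KO cells. In the Epcam set it turned to 0.014 without the 5% of cells with most UMIs. Of 411 values within groups, 358 stayed within counting error or kept their side of the rule. The highest group, by the mean of the libraries, was the same for 5 members with 3, 2 or 4 distinct markers as the minimum. Those gates have no Epcam or Twist1 set. Sema3c, Sema3f and Nrp1 were highest in these sets and so could not keep their group. With a gate tail of 1e-02 the highest group was the same for 4 members, where the cause was not tested. Plxnd1 and Sema6d were highest in endothelium and Plxna2 in neurons under every gate tried.

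No paired analysis was possible because each genotype had 1 library. Depth also limits the subsets, where a level can rest on under 10 UMIs and most cells lack any UMI of a given member.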

Other observations

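Cells with a UMI of a member were compared with all other cells of their library for the 5 genes that were most raised in WT, and the values were then read in KO. These 5 genes per member were chosen in WT after seeing the data, so their WT values are a description and the KO values are the second reading. For Plxnd1 they were Cd34, Cdh5, Tmem204, Plvap and Tie1, which are genes of endothelium, and in KO the log2 ratio of cells with over cells without was between 3.40 and 3.86. For Sema6d, Cd34, Tmem204, Cdh5, Flt4 and S100a16 stood between 1.93 and 2.90 in KO. For Nrp1 the first was Postn, a matrix gene of mesenchyme and cushions, with 136 CPM against 24.6 in WT and 46.1 against 9.23 in KO for cells with and without a Nrp1 UMI, followed by the collagen gene Col1a1. For Sema3c, cells with a UMI were richer in Ankrd1, a cardiac stress and development gene, with 501 CPM against 189 in WT and 1008 against 161 in KO, and in Myf5, with 162 CPM against 50.4 in WT and 108 against 23.5 in KO. For Sema3f the interval of KO included 0 for 3 of the 5, Vgll2 (log2 ratio 0.09, from 1.90 in WT), C77080 and Pax1, and lay above 0 for Gbx2 (0.50) and B930036N10Rik (0.59).

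After thinning, 45.4% of WT and 47.5% of KO endothelial cells held a UMI of at least 1 of the 4 receptors, against 21.4% and 19.3% of all cells and 9.72% and 7.39% of erythroid cells. A UMI of at least 1 of the 4 ligands was found in 15.3% and 12.98% of endothelial and 13.2% and 12.1% of cardiac muscle cells. In migrating neural crest it was found in 16 of 207 WT cells (7.73%) and 0 of 154 KO cells, which allows a share of cells with a UMI of up to 1.95% by a limit of 3 counts. That thinning was a single draw, and over all draws 12.6 WT and 6.38 KO cells would be expected, above the limit of 3 counts. Before thinning the shares were 13.04% and 11.7%, so no difference is read from the thinned shares. Endothelial cells with Nrp1 and Plxnd1 together numbered 15 in WT and 13 in KO, where the product of the shares gives 15.4 and 14.8. Those with Nrp1 and Nrp2 together numbered 3 and 7, where the product gives 6.51 and 7.74.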
